A study of Homo sapiens with 24 samples.

Results

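A set of 10 proteins that recognise methylated lysine 36 of histone H3 (H3K36) was followed at the transcript level in cells with and without SETD2, the enzyme that trimethylates this residue. The 10 genes were DNMT3A, DNMT3B, MSH6, PSIP1, ZMYND11, MORF4L1, BRPF1, PHF1, MTF2 and PHF19. They were chosen by symbol, 1 row each among the 58884 genes listed in each of 2 expression tables. No value entered the rule, but earlier results of these data were known when the choice was made. Each of the 10 passed the filter on low values in both tables.

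Readers of H3K36 methylation carry a small domain that holds the methylated lysine in a pocket of aromatic residues. In DNMT3A, DNMT3B, MSH6, PSIP1, ZMYND11 and BRPF1 this is a PWWP domain, in MORF4L1 a chromodomain, and in PHF1, MTF2 and PHF19 a Tudor domain. Through these domains the mark, which SETD2 lays down over transcribed genes, is linked to DNA methylation, mismatch repair, control of elongation, histone acetylation and deacetylation, and Polycomb silencing.

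The cells were HEK293T, a human embryonic kidney line. The first table holds 2 libraries of wild-type cells (WT) and 2 of a SETD2-deleted derivative (KO), in which both endogenous alleles are disrupted. The second table holds 2 libraries of KO cells, 2 of KO cells carrying full-length SETD2 (SETD2 FL) and 2 of KO cells carrying the C-terminal segment, residues 1404 to 2564 (SETD2 C). Both constructs are driven by a CMV promoter and were introduced by transient transfection, and RNA was taken 72 h later. The study used constructs with a GFP or a Halo tag, and the tag in the RNA libraries is not given in the sources used here. The labels call the KO libraries untreated, so the second table holds no library with an empty vector, and transfection cannot be told apart from the construct. No source used here says whether libraries of 1 group came from separate cultures, so p-values measure the spread between these libraries only. The comparison of KO with WT asks what loss of SETD2 did to the readers. Those of SETD2 FL and SETD2 C with KO and with each other ask what its return did with and without the N-terminal region. The paper reports markedly more SETD2 C than SETD2 FL protein, and more H3K36 trimethylation with SETD2 C. Lack of the region therefore cannot be told apart from the amount of protein.

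The unit was TPM, which divides by transcript length and by the library total, so that levels of genes in 1 table can be compared but the read depth of a library is unknown. TPM was divided by a factor per library that centres the ratios of expressed genes (scaled TPM), and differences are between means of log2(scaled TPM + 0.5), tested with limma over all genes that passed the filter. "Called" means that the p adjusted by Benjamini-Hochberg did not exceed 0.05. The SETD2 transcript was at a scaled TPM of 14.4 and 14.3 in the WT libraries and 15.3 and 15.7 in the first pair labelled KO, a log2 difference of 0.11 (95% interval -0.07 to 0.30, adjusted p = 0.408 by limma), so that it does not check these labels. It was at 12.4 and 12.7 in the second pair labelled KO, at 459 and 424 in SETD2 FL libraries and at 1250 and 1180 in SETD2 C libraries. SETD2 C lay above SETD2 FL by 1.46 on the log2 scale (standard error 0.06, adjusted p = 7.09e-06 by limma). The paper, in contrast, reports no significant difference in mRNA level between these constructs in its RNA-seq data. TPM divides by the length of annotated transcripts and SETD2 C is a shorter segment, so the ratio of construct RNAs is uncertain. Mitochondrially encoded mRNAs held 22.6% and 13.8% of TPM in WT and 11.8% and 12.2% in KO of the first table. In the second they held 6.73% and 5.88% in KO, 10.4% and 7.43% in SETD2 FL libraries and 2.44% and 2.78% in SETD2 C libraries. Of 8 markers of HEK293 cells, 6 to 8 reached a TPM of 1 in every library, and none was at 0. The summed TPM of 10 markers of blood, liver, fibroblast and pigment cells was 4.09 to 5.42 in the first table. In the second it was 4.74 and 4.87 in KO, 6.56 and 6.55 in SETD2 FL libraries and 12.7 and 11 in SETD2 C libraries. Of these, PTPRC, CD3E and MLANA did not exceed 0.05 TPM in any library, and 1 to 4 of the 10 reached a TPM of 1.

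The readers spanned a wide range of transcript levels, with the same gene at each end in both tables. In the second table the mean scaled TPM over the 6 libraries ranged from 352 for MORF4L1 through 153 for PSIP1, 82.1 for MSH6, 40 for MTF2, 36.6 for PHF19, 24.1 for PHF1, 20.7 for DNMT3B and 7.8 for BRPF1 to 4.82 for ZMYND11 and 4.46 for DNMT3A. The library ranges of MTF2 and PHF19 overlapped, as did those of ZMYND11 and DNMT3A, and other neighbours were separate. MORF4L1 stood above 97.9% of the genes tested and DNMT3A above 33.9%. In the first table MORF4L1 was again highest at 849 and DNMT3A lowest at 5.61, and the neighbours with overlapping ranges were PHF19 with DNMT3B (26.5 and 26.2) and BRPF1 with ZMYND11 (13.4 and 12.6). The tables were normalised separately, so a level is not compared between them.

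**Figure D1:**
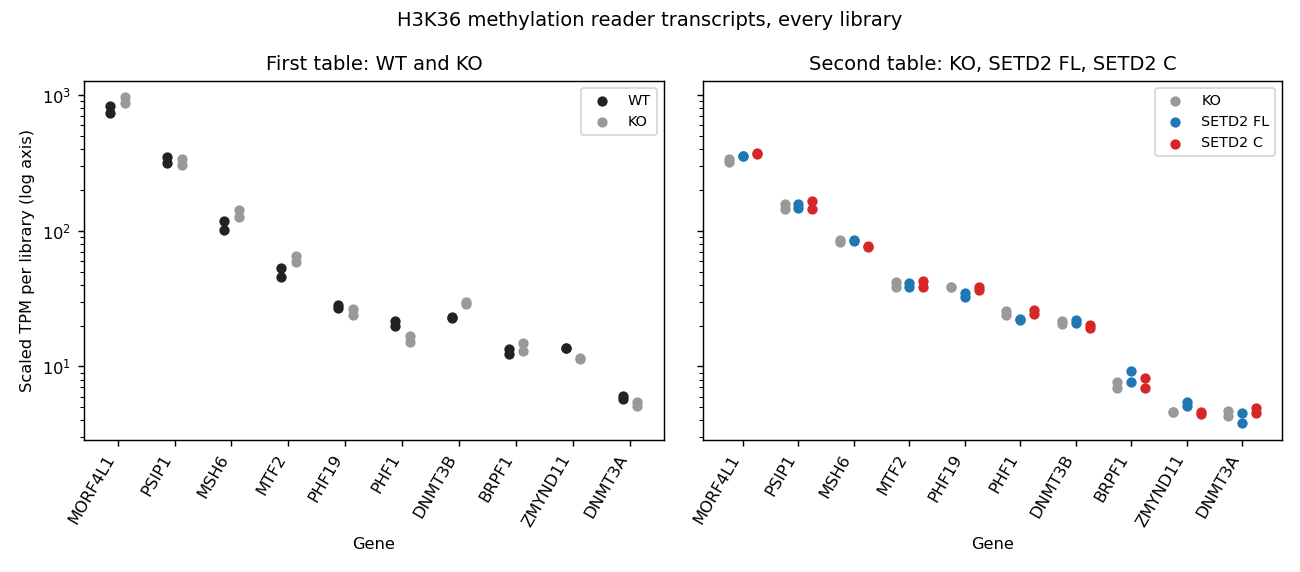
Scaled TPM of the 10 reader genes (log axis), 1 point per library, WT and KO in the left panel and KO, SETD2 FL and SETD2 C in the right panel, genes ordered by their mean in the second table. Levels run from 4.46 for DNMT3A to 352 for MORF4L1 as means of the second table, while points of 1 gene lie close together whatever the group.

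With SETD2 C, 1 of the 10 readers was called higher than in KO and 0 lower. Among all 15929 genes tested in this comparison, 36.2% were called (21.1% higher and 15.1% lower). The higher calls were 58.3% of all calls, 83.2% without scaling, 75.7% after rescaling without mitochondrial genes and SETD2, and 46.9% under quantile normalization. The 1 reader called was MORF4L1, at a fold of 1.13, and 0 readers passed a 2-fold minimum, against 3.75% of all genes higher and 0.314% lower. Before adjustment, 2 readers (MORF4L1 and MSH6) and 47.1% of all genes had a p under 0.05. Both libraries of 1 group lay on 1 side of both of the other for 4 of the 10 readers, 1 higher and 3 lower, against 71.3% of all genes (40.5% higher and 30.8% lower). The median absolute log2 difference was 0.05 over the readers and 0.22 over all genes, and the median signed difference was 0.01 against 0.05. The 95% intervals of all 10 lay between -0.27 (DNMT3B) and 0.33 (BRPF1), so that differences of 2-fold, a log2 difference of 1, lay outside them.

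With SETD2 FL, 0 of the 10 readers were called in either direction by limma, as with its variant without a mean-variance trend, and 1, PHF19, had an unadjusted p under 0.05. Of all genes, 0.207% were called (0.176% higher and 0.0314% lower) and 15.9% had an unadjusted p under 0.05. The 2 groups did not overlap for 5 readers, 3 higher and 2 lower, against 48.2% of all genes (24.8% higher and 23.4% lower), and the median absolute difference was 0.11 over both the readers and all genes. The intervals lay between -0.37 (DNMT3A) and 0.48 (BRPF1).

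In the direct comparison of SETD2 C with SETD2 FL, 0 of the 10 readers were called by limma, with or without a trend, where 38.2% of all genes were (21.4% higher and 16.8% lower). The higher calls were 56% of all calls, 77.5% without scaling and 46.8% under quantile normalization. An unadjusted p under 0.05 was reached by 3 of them (MSH6, PHF1 and PHF19), and by 48.8% of all genes. Groups did not overlap for 6 readers, 3 higher and 3 lower, against 72.3% of all genes (40.3% higher and 32% lower). The intervals lay between -0.43 (BRPF1) and 0.43 (DNMT3A). The comparisons within the second table share libraries, so each is given with its own values and no agreement between them is drawn on.

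Between KO and WT, 0 of the 10 readers were called by limma, with or without a trend, against 4.48% of the 14741 genes tested (1.32% higher and 3.17% lower). The higher calls were 29.3% of all calls, and 53.3% without scaling. Differences were nonetheless wider here than over all genes, with a median absolute log2 difference of 0.24 against 0.15. An unadjusted p under 0.05 was reached by 5 readers, against 24.9% of all genes, and the groups did not overlap for 8, 4 higher and 4 lower in KO, against 56.9% (27.4% higher and 29.4% lower). The intervals ran from -0.57 (PHF1) to 0.57 (MTF2).

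**Figure D2:**
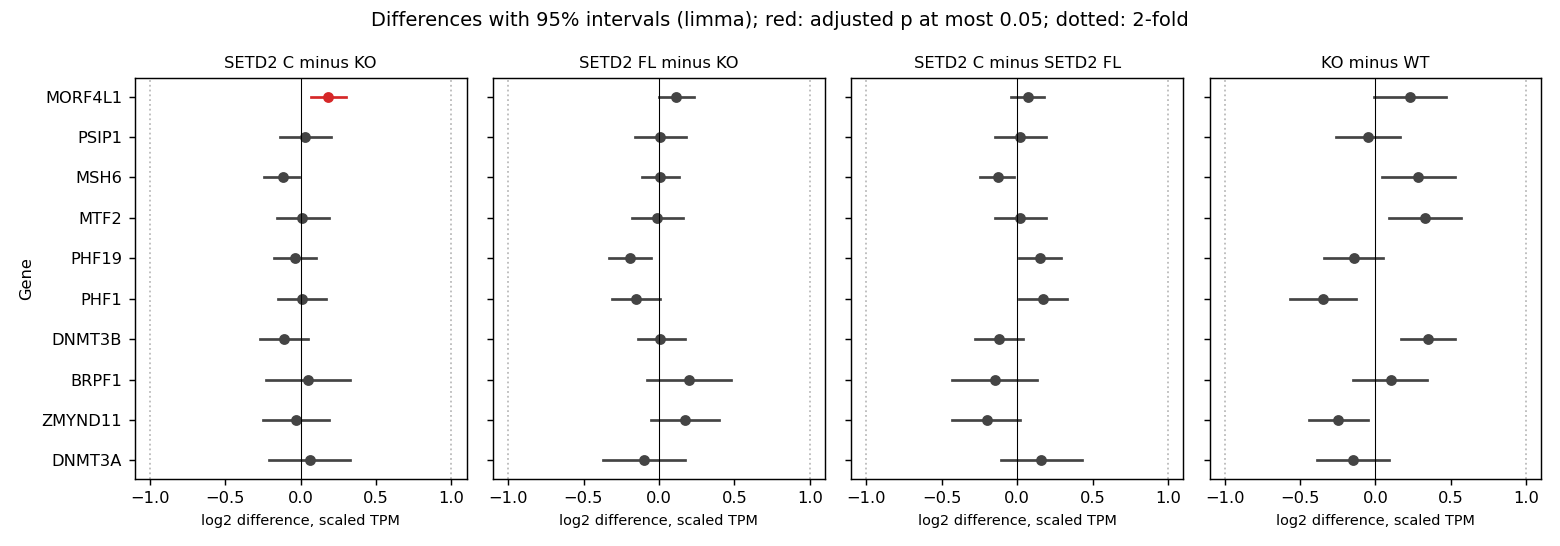
Log2 difference of scaled TPM (x axis) for each reader (y axis) in the 4 comparisons, with 95% intervals from limma. MORF4L1 in SETD2 C minus KO (0.18, interval 0.07 to 0.30) is the 1 point in red, an adjusted p of at most 0.05, and no interval reaches a dotted line, a 2-fold difference.

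MORF4L1 (ENSG00000185787, also known as MRG15) encodes the chromodomain subunit shared by the NuA4/TIP60 acetyltransferase complex and by SIN3 deacetylase complexes. It maps to chr15:78810487-78898139 (plus strand, GRCh38), and its reference transcript has 12 exons. Its scaled TPM was 320 and 338 in KO, 354 and 357 in SETD2 FL libraries and 376 and 370 in SETD2 C libraries. The 3 groups were ordered without overlap, with SETD2 FL in between. Of all genes, 71.3% did not overlap between SETD2 C and KO, 48.2% between SETD2 FL and KO and 72.3% between SETD2 C and SETD2 FL. These comparisons share libraries, and the order itself was not tested. MORF4L1 rose with SETD2 C relative to KO, from 329 ± 12.9 to 373 ± 4.41 scaled TPM (SD, n = 2 in each group), a rise of 13.4% and a log2 difference of 0.18 (standard error 0.05, adjusted p = 0.0242 by limma with Benjamini-Hochberg adjustment). With SETD2 FL the difference from KO was 0.11 (interval 0.00 to 0.23, adjusted p = 0.323 by limma), and SETD2 C minus SETD2 FL was 0.07 (interval -0.04 to 0.18, adjusted p = 0.296 by limma). The call rested on the full set of libraries: the adjusted p by limma was 0.14 without KO replicate 2, 0.104 without SETD2 C replicate 1 and 0.0805 without SETD2 C replicate 2, with log2 differences of 0.14, 0.17 and 0.19, and 0.0407 without KO replicate 4. It was 0.0899 without a trend in limma. The lower mitochondrial share and the higher marker sum of other cell types in the SETD2 C libraries, given above, moved with this difference, as did the HEK293 markers, with a summed TPM of 1090 in both KO libraries and 1560 and 1640 with SETD2 C and 5 of 8 called higher. Their part in it was not tested. In bulk RNA a change in the share of cells that express a gene and a change in RNA per cell cannot be told apart.

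The groups of the first table were apart as well, with MORF4L1 at 736 and 828 in WT and at 870 and 964 in KO. The log2 difference of 0.23 (interval -0.01 to 0.47) did not pass the test (adjusted p = 0.218 by limma). It was 0.14 without WT replicate 1, and the libraries numbered 1 were the lower in each group.

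Reads of MORF4L1 can also be assigned to a near-identical copy, which bears on its values. MORF4L1P1 (ENSG00000218283) is a processed pseudogene of 1 exon at chr1:220253570-220254536 (plus strand, GRCh38). Of its 967 bases, 960 (99.3%) are identical to the coding sequence of MORF4L1. The 7 differences, numbered from 1 at the A of the start codon with the MORF4L1 base first, are C8G, A165G, C400T, G487T, T729C, T825C and C918T. Reads were paired and 75 bases long, so a fragment has a second read that can tell the copies apart where 1 read cannot, and shares of windows are not shares of fragments. Windows of 75 bases are shown from the start of the coding sequence, because they show how little separates the copies. The capital marks the single difference, and the third window, at coding positions 9 to 83, is identical in both.
MORF4L1, coding positions 1 to 75: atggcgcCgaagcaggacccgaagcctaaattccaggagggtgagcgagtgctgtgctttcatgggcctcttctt
MORF4L1P1, positions 1 to 75: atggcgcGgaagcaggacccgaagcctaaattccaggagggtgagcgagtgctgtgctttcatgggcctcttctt
MORF4L1 and MORF4L1P1, positions 9 to 83: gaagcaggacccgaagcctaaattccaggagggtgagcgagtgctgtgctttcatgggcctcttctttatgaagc

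Of the 893 such windows of the pseudogene, 460 (51.5%) occur unchanged in the MORF4L1 reference transcript, and the others differ at 1 position. Seen from the gene, 467 of 2098 windows (22.3%) of the MORF4L1 transcript also occur in a transcript of MORF4L1P1, MORF4 or MORF4L1P3. PSIP1 shared 70 of 3268 windows (2.14%) with PSIP1P1, and the other 8 readers shared 0. MORF4L1P1 was listed at a TPM of 39.6, 49.2, 54.2 and 59.5 in the libraries of the first table (WT, then KO). In the second it was at 24 and 23.7 in KO, 22.7 and 25.3 in SETD2 FL libraries and 30.1 and 31 in SETD2 C libraries. In a fit with all gene types its log2 difference between SETD2 C and KO was 0.21 (interval 0.06 to 0.35, adjusted p = 0.0422 by limma), which was close to that of MORF4L1. Between SETD2 FL and KO it was -0.01 (interval -0.16 to 0.13), where MORF4L1 was at 0.11. Between SETD2 C and SETD2 FL it was 0.22 (interval 0.08 to 0.36, adjusted p = 0.0331 by limma), where MORF4L1 was at 0.07 and not called. Between KO and WT both were at 0.23, and neither was called. The share of MORF4L1P1 in the summed TPM of the pair was 5.41% to 5.77% in the first table and 6.27% to 7.28% in the second. The division of shared reads between the copies is an estimate made by the authors' counting, so the levels of both are uncertain, and the share of the MORF4L1 difference that lies with the copy was not tested.

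PSIP1 (ENSG00000164985) encodes LEDGF, a PWWP protein that tethers MLL-menin complexes and other factors to transcribed chromatin. It maps to chr9:15464066-15510995 (minus strand, GRCh38). Its scaled TPM was 158 and 146 in KO, 147 and 158 in SETD2 FL libraries and 145 and 165 in SETD2 C libraries. The groups overlapped in each comparison, and the differences from KO were 0.03 with SETD2 C (interval -0.14 to 0.20) and 0.01 with SETD2 FL (interval -0.16 to 0.18). In the first table PSIP1 was at 315 and 350 in WT and 307 and 336 in KO, again overlapping, with a log2 difference of -0.05 (interval -0.26 to 0.16). It was the 1 reader of the 10 whose groups overlapped in all 4 comparisons.

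MSH6 (ENSG00000116062) encodes a PWWP protein of DNA mismatch recognition. It maps to chr2:47695530-47810063 (plus strand, GRCh38). Its scaled TPM was 82.7 and 85.7 in KO, 84.4 and 85.1 in SETD2 FL libraries and 76.5 and 77.8 in SETD2 C libraries. Both SETD2 C libraries lay below the other 4 on this scale, but not without scaling, where the difference from KO turned to 0.02. The scaled log2 difference of SETD2 C was -0.12 from KO (interval -0.24 to -0.01, adjusted p = 0.088 by limma) and -0.13 from SETD2 FL (interval -0.25 to -0.02, adjusted p = 0.0684 by limma), neither of which passed the test, and that of SETD2 FL from KO was 0.01. In the first table MSH6 was at 101 and 119 in WT and 126 and 142 in KO, without overlap, a log2 difference of 0.28 (interval 0.04 to 0.53, adjusted p = 0.156 by limma). It was 0.16 without WT replicate 1 (adjusted p = 0.413 by limma).

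DNMT3A (ENSG00000119772) and DNMT3B (ENSG00000088305) encode the de novo DNA methyltransferases. DNMT3A maps to chr2:25227855-25342590 (minus strand, GRCh38) and DNMT3B to chr20:32762385-32809359 (plus strand). DNMT3B was at a scaled TPM of 22.7 and 23.3 in WT and 28.9 and 30.1 in KO. These groups were apart by more than their spread, 23 ± 0.484 against 29.5 ± 0.84 (SD, n = 2 each). Of the readers in the first table DNMT3B had the smallest adjusted p, which missed the threshold, at a log2 difference of 0.35 (standard error 0.07, interval 0.17 to 0.53, adjusted p = 0.0521 by limma). When the genes tested were limited to those that reached a TPM of 1 in each library, the adjusted p was 0.0471 by limma at the same difference. DNMT3A was at 5.77 and 6.09 in WT and 5.15 and 5.44 in KO, with a log2 difference of -0.15 (interval -0.39 to 0.09).

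The make-up of the pair does not depend on a scaling factor per library. DNMT3B held 79.7% and 79.3% of the summed TPM of both genes in WT and 84.9% and 84.7% in KO, or 79.5% ± 0.283 against 84.8% ± 0.141 (SD, n = 2 each). The groups lay apart, but each SD rests on 2 libraries, and the shares were not tested. The SD of the same share was larger in the second table, at 1.41 in KO, 1.2 in SETD2 FL and 1.56 in SETD2 C libraries. With 2 libraries a group the smallest exact two-sided permutation p is 0.333. In the second table the share was 83.5% and 81.5% in KO, 84.6% and 82.9% in SETD2 FL libraries and 79.5% and 81.7% in SETD2 C libraries. The KO libraries of that table overlapped both of the other groups.

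In the second table DNMT3B itself was at 21.8 and 20.6 scaled TPM in KO, 20.9 and 21.9 in SETD2 FL libraries and 19.2 and 20.1 in SETD2 C libraries. Both SETD2 C libraries were below all others on this scale, at log2 differences of -0.11 from KO (interval -0.27 to 0.05) and -0.12 from SETD2 FL (interval -0.28 to 0.04) that were within the error of the fit. Without scaling the groups overlapped and these differences were 0.035 and 0.004, so their direction depends on the scaling. DNMT3A was at 4.29 and 4.69 in KO, 3.81 and 4.53 in SETD2 FL libraries and 4.93 and 4.5 in SETD2 C libraries. Its groups overlapped in all 3 comparisons, and with a level this low its intervals were among the widest, -0.21 to 0.33 for SETD2 C minus KO.

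**Figure D3:**
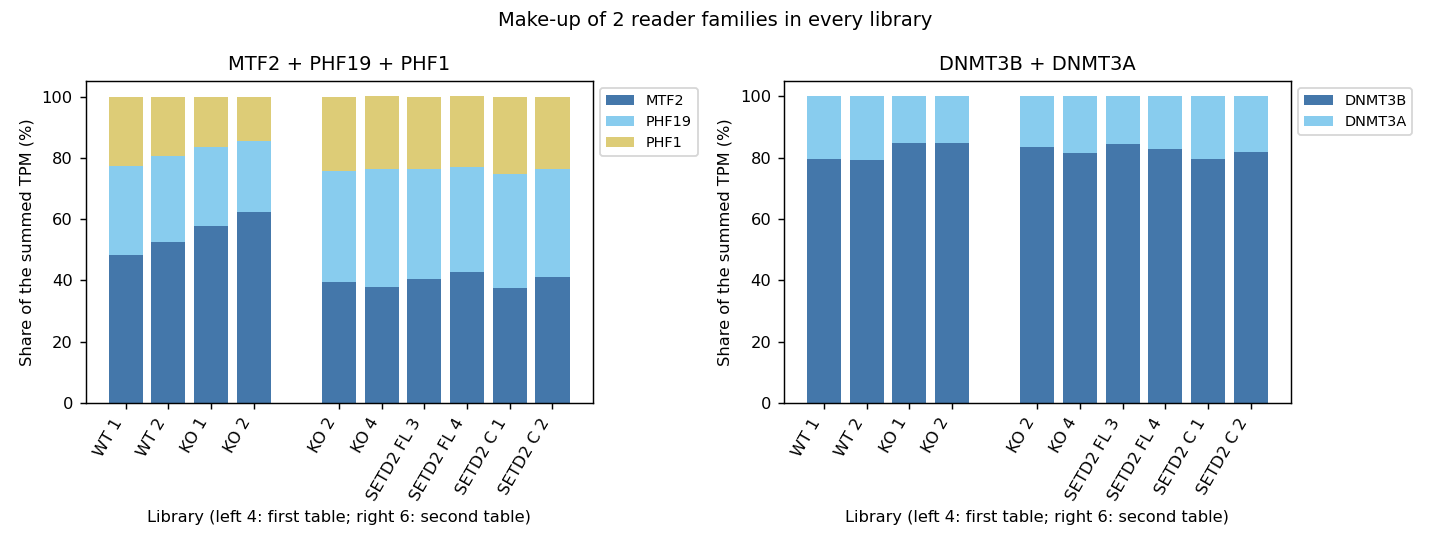
Share (%) of the summed TPM held by MTF2, PHF19 and PHF1 (left) and by DNMT3B and DNMT3A (right) in each of the 10 libraries, stacked bars. In the first table MTF2 holds 48.3% and 52.6% in WT and 57.8% and 62.4% in KO, and DNMT3B 79.7% and 79.3% against 84.9% and 84.7%, while in the second table MTF2 stays between 37.4% and 42.8%.

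PHF1, MTF2 and PHF19 encode the Polycomb-like accessory subunits that bring the PRC2 methyltransferase to chromatin. MTF2 (ENSG00000143033) maps to chr1:93079235-93139079 (plus strand, GRCh38), PHF1 (ENSG00000112511) to chr6:33410399-33416453 (plus strand) and PHF19 (ENSG00000119403) to chr9:120855651-120894896 (minus strand). MTF2 was at a scaled TPM of 45.4 and 53.3 in WT and 59.1 and 65 in KO. PHF1 lay the other way, at 21.5 and 19.7 in WT and 16.9 and 15.2 in KO, and PHF19 was at 27.1 and 28.4 in WT and 26.3 and 24 in KO. None of the 3 overlapped between the groups on this scale, as 56.9% of all genes did not, and none passed the test. Without scaling the PHF19 libraries overlapped, and the log2 difference was -0.01 for PHF19 and -0.22 for PHF1. The log2 differences were 0.33 for MTF2 (interval 0.09 to 0.57, adjusted p = 0.106 by limma), -0.35 for PHF1 (interval -0.57 to -0.13, adjusted p = 0.0819) and -0.14 for PHF19 (interval -0.34 to 0.05, adjusted p = 0.326). Without WT replicate 2 the adjusted p of MTF2 was 0.0397 by limma at a log2 difference of 0.44, and without WT replicate 1 the difference was 0.21 with an adjusted p of 0.288.

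Within the sum of the 3 genes, MTF2 held 48.3% and 52.6% in WT and 57.8% and 62.4% in KO. PHF1 held 22.8% and 19.4% in WT and 16.5% and 14.6% in KO, and PHF19 28.9% and 28% against 25.7% and 23%. All 3 shares were thus apart between these groups, whatever the scaling. The 3 add up to the whole, so a rise of 1 share lowers the others together, and they are not 3 separate results. The shares were not tested. WT replicate 1, with the highest mitochondrial share of the 10 libraries at 22.6%, also had the lowest MTF2 share of its table and the highest PHF1 share. The part of that library in the difference was not tested.

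In the second table PHF19 was at a scaled TPM of 38.6 and 38.5 in KO, 34.6 and 32.7 in SETD2 FL libraries and 38.5 and 36.5 in SETD2 C libraries. Both SETD2 FL libraries were below the other 4, at -0.19 from KO (interval -0.33 to -0.05, adjusted p = 0.211 by limma), the 1 reader with an unadjusted p under 0.05 (0.0131) in that comparison. SETD2 C minus SETD2 FL was 0.15 (interval 0.01 to 0.29, adjusted p = 0.0772 by limma). PHF1 was likewise lowest with SETD2 FL, at 25.8 and 23.9 in KO, 22.4 and 22.1 in SETD2 FL libraries and 26 and 24.2 in SETD2 C libraries, with a difference of -0.15 between SETD2 FL and KO (interval -0.31 to 0.01, adjusted p = 0.335 by limma) and 0.17 between SETD2 C and SETD2 FL (interval 0.01 to 0.33, adjusted p = 0.0933 by limma). MTF2 was at 41.8 and 38.2 in KO, 38.5 and 41 in SETD2 FL libraries and 38.4 and 42.3 in SETD2 C libraries. Its groups overlapped throughout, and its differences were 0.01, -0.01 and 0.02 in the 3 comparisons. The shares of the 3 genes were 37.4% to 42.8% for MTF2, 34.2% to 38.3% for PHF19 and 23.1% to 25.2% for PHF1 across the 6 libraries.

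The core subunits of PRC2 gave the setting for these values. EZH2, its usual catalytic subunit, was at a scaled TPM of 63.9 and 60.7 in WT and 52.5 and 55.8 in KO (log2 difference -0.20, adjusted p = 0.156 by limma), SUZ12 at 32.2 and 36.4 against 38.4 and 43.3, and EED at 21.4 and 22.5 against 19.2 and 19.9. None of these 3 passed the test in any of the 4 comparisons. In the second table the largest difference among them was that of EED between SETD2 C and SETD2 FL, at 0.25 (interval 0.04 to 0.46, adjusted p = 0.0591 by limma).

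ZMYND11 (ENSG00000015171) encodes a PWWP and bromodomain protein that recognises trimethylated K36 on the variant histone H3.3 and restrains elongation. It maps to chr10:130088-254637 (plus strand, GRCh38). Its scaled TPM was 13.7 and 13.6 in WT and 11.4 and 11.5 in KO. The groups were apart on this scale, with a log2 difference of -0.25 (interval -0.44 to -0.05) that did not pass the test (adjusted p = 0.131 by limma). Without scaling its TPM was 12.06 and 14.15 in WT and 12.05 and 11.91 in KO, with the groups almost touching, and the difference was -0.12. In the second table it was at 4.65 and 4.62 in KO, 5.07 and 5.51 in SETD2 FL libraries and 4.6 and 4.44 in SETD2 C libraries. The SETD2 FL libraries lay above all others, at 0.17 from KO (interval -0.05 to 0.40, adjusted p = 0.419 by limma), and SETD2 C minus SETD2 FL was -0.20 (interval -0.43 to 0.02, adjusted p = 0.128 by limma). Under quantile normalization the latter was -0.34 with an adjusted p of 0.0283 by limma, and without scaling it was -0.09.

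BRPF1 (ENSG00000156983) encodes the scaffold of the MOZ and MORF acetyltransferase complexes. It maps to chr3:9731729-9748019 (plus strand, GRCh38). Its scaled TPM was 7.66 and 6.94 in KO, 7.74 and 9.25 in SETD2 FL libraries and 8.28 and 6.93 in SETD2 C libraries. SETD2 FL did not overlap KO, but by a narrow margin, and its replicates were far apart, with an SD that was 12.6% of the mean in SETD2 FL and 12.5% in SETD2 C. The log2 differences from KO were 0.20 with SETD2 FL (interval -0.08 to 0.48) and 0.05 with SETD2 C (interval -0.23 to 0.33). BRPF1 of the first table was at 13.5 and 12.4 in WT and 14.9 and 12.9 in KO, overlapping, with a difference of 0.10 (interval -0.15 to 0.34).

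Some readers overlap another gene on the opposite strand, and the sources used here do not say whether the counting used strand. The overlap is 20748 bases of MSH6 with FBXO11, 1888 of PSIP1 with SNAPC3, 978 of MORF4L1 with ADAMTS7 and 12 of PHF1 with CUTA. Reads from the overlapping parts may be shared between these genes.

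The scaling between libraries moved the readers together with all other genes. Without any scaling the median log2 difference of all genes was 0.18 between SETD2 C and KO, 0.16 between SETD2 C and SETD2 FL, and 0.11 between KO and WT, and it was 0.05, 0.04 and -0.01 after scaling. The median of the readers followed, at 0.16, 0.15 and 0.15 without scaling and 0.01, 0.02 and 0.02 after it. MORF4L1 stayed above the median of all genes and above 0 between SETD2 C and KO under each of 4 scalings, at log2 differences of 0.18 to 0.33. Differences of the other readers in that comparison that lie near 0, and their signs, depend on the scaling.

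**Figure D4:**
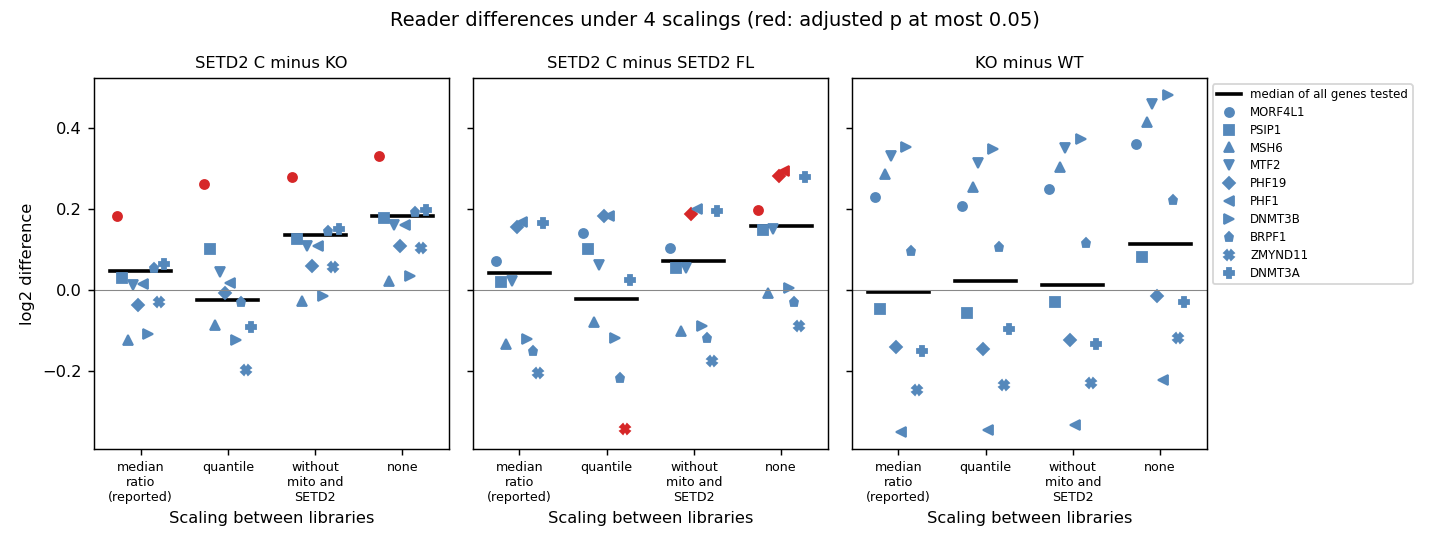
Log2 difference of each reader under 4 ways of scaling libraries (x axis), for SETD2 C minus KO, SETD2 C minus SETD2 FL and KO minus WT, 1 symbol per gene, with a black bar at the median of all genes tested and red for an adjusted p of at most 0.05. The readers move with the bar, which lies at 0.05 as reported and at 0.18 without scaling in the left panel, and MORF4L1 is red under all 4 scalings there.

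The other genes of the same pathways were read in the same fits. They were 73 genes in 9 lists (other PWWP proteins, other chromodomain, Tudor and MRG-domain proteins, the partners of each reader, and the writers and erasers of H3K36 methylation), of which 71 passed the filter. Between SETD2 C and KO, 17 rose and 11 fell (39.4% called, against 36.2% of all genes), 0 of them by 2-fold or more, with a median log2 difference of 0.06. Rescaling without mitochondrial genes and SETD2 gave 23 higher and 6 lower, and no scaling 30 and 2, and 16 of the 28 were called in the same direction under all 3 other scalings. The count of 1 reader of 10 lay below this share, and the difference between the shares was not tested. Between SETD2 FL and KO 0 of the 71 were called by limma, and between KO and WT 1 was.

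Of 16 other PWWP genes tested, 3 rose and 1 fell with SETD2 C relative to KO, where 21.1% of all genes rose and 15.1% fell. PWWP3B, a paralogue of the DNA damage protein PWWP3A, rose from 2.89 ± 0.0688 to 4.56 ± 0.025 scaled TPM (SD, n = 2 each), a log2 difference of 0.58 (adjusted p = 0.00646 by limma). PWWP3A rose by 0.28 on the same scale (adjusted p = 0.0133 by limma) and PWWP2B fell by 0.30 (adjusted p = 0.0494 by limma), the latter called under 1 of the 3 other scalings. PWWP3B was also the gene that differed between KO and WT, where it rose from 1.43 ± 0.163 to 4.67 ± 0.0265 scaled TPM (SD, n = 2 each), a log2 difference of 1.42 (standard error 0.13, adjusted p = 0.00358 by limma). Its interval there was 1.11 to 1.73, and it was called under all 3 other scalings. Of 4 other chromodomain, Tudor and MRG-domain genes, 3 rose with SETD2 C. PHF20L1 rose by 0.44, MSL3 by 0.26 and MORF4L2, the paralogue of MORF4L1 that lacks the chromodomain, by 0.24, from 607 ± 5.71 to 717 ± 7.93 scaled TPM (adjusted p = 0.00669 by limma).

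**Figure D5:**
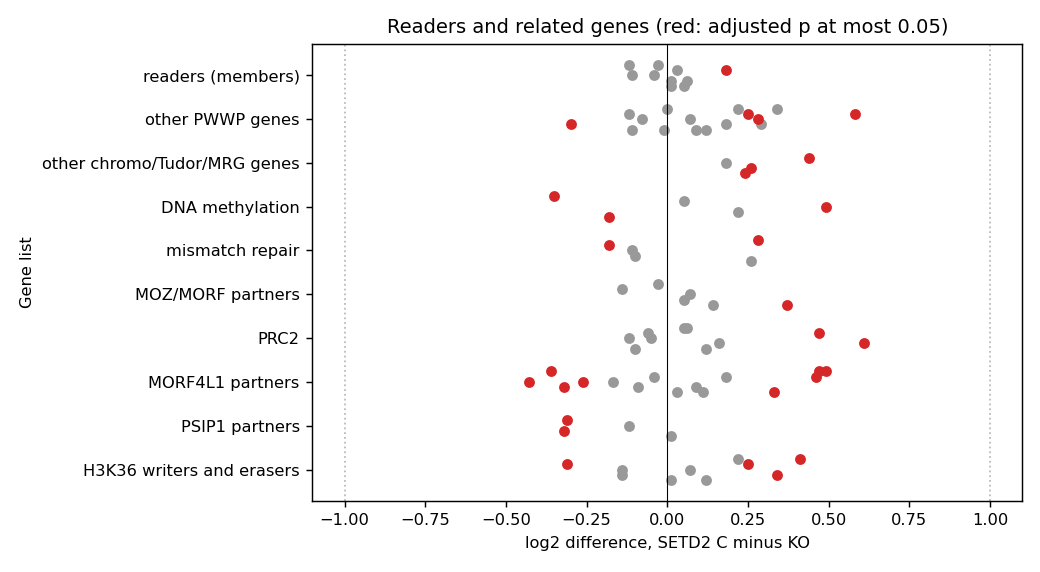
Log2 difference between SETD2 C and KO (x axis) for the 10 readers and the genes of 9 related lists (rows), 1 point per gene, red for an adjusted p of at most 0.05. SETD2 is left out, genes of 2 lists appear in both rows, and no point reaches a dotted line, a 2-fold difference. MORF4L1 at 0.18 is the 1 red point among the readers.

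Partners of individual readers were called in both directions with SETD2 C relative to KO, as were 36.2% of all genes (21.1% higher and 15.1% lower). The lists are short, and no difference of a list from these shares was tested. Among 15 partners of MORF4L1, 4 rose and 4 fell. EPC2, a scaffold subunit of NuA4/TIP60, rose by 0.49 and KDM5B, an H3K4 demethylase, by 0.47, while EP400 fell by 0.43 and TRRAP by 0.36, both large subunits of the same acetyltransferase complex. Among 4 partners of PSIP1, 2 fell, IWS1 by 0.32 and MEN1 by 0.31. TRRAP, IWS1 and MEN1 were each called under 2 of the 3 other scalings, with the smallest differences at -0.22, -0.18 and -0.17. Among 10 genes of PRC2, 2 rose, LCOR by 0.61 and EZH1, the alternative catalytic subunit, by 0.47.

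Among 5 DNA methylation genes tested beside DNMT3A and DNMT3B, TET2, a 5-methylcytosine oxidase, rose by 0.49 and UHRF1 and DNMT1, the maintenance pair, fell by 0.35 and 0.18. The DNMT1 difference was called under 0 of the 3 other scalings, TET2 under 2, with the smallest difference at 0.24, and UHRF1 under all 3. Among 5 mismatch repair genes PMS2 rose by 0.28, called under 2 of the 3 and at least 0.22 in each, and PCNA fell by 0.18, called under 0 of the 3. Among 6 partners of BRPF1, ING4 rose by 0.37. Of 10 writers and erasers beside SETD2, KDM4B rose by 0.41 and KDM2A by 0.34, both demethylases, as did NSD2, a dimethyltransferase counted above among the PWWP genes, by 0.25, and KDM4A, also a demethylase, fell by 0.31. KDM2A and KDM4A were each called under 2 of the 3 other scalings, and the smallest difference of KDM4A was -0.16.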

How the data were processed

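The data were RNA-seq of 10 HEK293T libraries, 4 in the first table and 6 in the second, grouped by their labels. The authors aligned reads to hg38 with STAR 2.6.1c, with Ensembl 96 gene models, estimated TPM with RSEM 1.3.0 (bcl2fastq 2.18 is also named in their processing notes), and deposited TPM per gene without normalization between libraries. TPM gives no depth, and a few genes that rise lower all others. The authors tested counts with edgeR, which were not used here. The 14 ChIP samples were not analysed here.

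Each library was scaled by the median of its ratios to a geometric-mean library, taken over protein-coding and lncRNA genes that reached a TPM of 1 throughout a table, and log2(scaled TPM + 0.5) was tested with limma 3.58.1 (R 4.3.3), using eBayes with a trend and Benjamini-Hochberg adjustment. This scale understates changes of low genes. The tests covered genes of these types that reached a TPM of 0.5 in 2 or more libraries, which were 14741 genes in the first table and 15929 in the second, whose 6 libraries shared 1 fit. Gene types, positions and transcripts came from GENCODE 44 (GRCh38), in which an identifier was found for 58472 of the 58884 genes, a symbol for 18 more and nothing for 394. The study's FDR cutoff of 0.05 defined a call. The procedure was tested on simulated data. There, between KO and WT, 0 of 49 genes with a true log2 difference of size 0.2 were called, and 6 of 49 with 0.35. Between SETD2 C and KO these were 3 of 50 and 19 of 49. For that comparison 48 to 50 of 15525 genes were changed at each size, whereas 36.2% of all genes were called in the data. Whether the recovered shares hold for the data was not tested. A reader that was not called may still differ by an amount within its 95% interval. Between SETD2 C and KO the intervals of all 10 lay between -0.27 and 0.33, so that a difference of 0.35 lay outside them.

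Named genes were the readers, SETD2, up to 2 called genes with the largest and 2 with the smallest difference of each list between SETD2 C and KO, EZH2, EED, SUZ12 and pseudogenes of readers. A further gene under this rule is not reported here. The readers and lists were chosen with earlier results of these data known. Alternatives were pseudocounts of 0.1 and 1, stricter and no filters, no scaling, quantile normalization, rescaling without mitochondrial genes and SETD2, no trend, all gene types, a 2-fold minimum, fits of 2 groups, a replicate block, and each library left out. KDM2A, PHF20 and mitochondrial mRNAs as a group were named after their values were seen.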

Additional observations from a re-analysis of the deposited data

How the results depend on the processing

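The count of readers called was 1 higher between SETD2 C and KO, and 0 in the other directions and comparisons. It was 0 with a 2-fold minimum and 0 without a trend, and 0 to 1 when each library was left out (0 without KO replicate 2, SETD2 C replicate 1 or SETD2 C replicate 2). MORF4L1 in that comparison stayed positive over 15 alternatives, the 2-fold minimum among them, with log2 differences of 0.14 to 0.33 and adjusted p by limma of 0.0022 to 0.14, at most 0.05 in 11 of the 15 before a 2-fold minimum is applied. Between SETD2 C and SETD2 FL, 3 readers were higher without scaling (MORF4L1, PHF1 and PHF19 at 0.20, 0.29 and 0.28), 1 was higher after rescaling without mitochondrial genes and SETD2 (PHF19 at 0.19), and 1 was lower under quantile normalization (ZMYND11). Between KO and WT, 1 reader was higher when genes had to reach a TPM of 1 in each library (DNMT3B), and 0 to 1 when each library was left out (MTF2 without WT replicate 2).

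In the first table the replicate numbers 1 and 2 occur in both WT and KO, and deviations from group means correlated at 0.147 for equal numbers, over 14741 genes. With 2 libraries a group the deviations mirror each other, so both pairs of equal number give this same value by construction. No label says that a number marks a shared batch, so the libraries share only a number. With the replicate block, 3 readers were higher in KO (DNMT3B, MSH6 and MTF2, adjusted p by limma 0.0379, 0.0479 and 0.0386) and 1 lower (PHF1, 0.0441), and calls over all genes went from 194 higher and 467 lower to 439 and 825. The block left 1 residual degree of freedom per gene. No paired analysis was possible because the groups of the second table share fewer than 2 numbers.

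Signs that turned belonged to readers that were not called. Between SETD2 C and KO they were, without scaling, DNMT3B 0.035, MSH6 0.023, ZMYND11 0.102 and PHF19 0.108, under quantile normalization DNMT3A -0.091 and BRPF1 -0.031, and after rescaling ZMYND11 0.057 and PHF19 0.058. Between SETD2 FL and KO they were MTF2 0.011 without scaling and 0.054 after rescaling, and DNMT3B -0.004, MSH6 -0.007 and PSIP1 -0.001 under quantile normalization. Without scaling, DNMT3B was 0.004 between SETD2 C and SETD2 FL and PSIP1 0.082 between KO and WT. With each library left out, ranges that crossed 0 were, for SETD2 C minus KO, PSIP1 -0.061 to 0.119, BRPF1 -0.068 to 0.173, PHF1 -0.042 to 0.067 and MTF2 -0.054 to 0.081. For SETD2 FL minus KO they were MSH6 -0.017 to 0.034, MTF2 -0.074 to 0.055, DNMT3B -0.027 to 0.049, PSIP1 -0.047 to 0.064 and DNMT3A -0.212 to 0.010. For SETD2 C minus SETD2 FL they were PSIP1 -0.071 to 0.109 and MTF2 -0.046 to 0.088, and for KO minus WT, PSIP1 -0.127 to 0.027 and BRPF1 -0.007 to 0.202. The cause was not tested.

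Over all genes, calls between SETD2 C and KO were 3357 higher and 2404 lower. No scaling gave 5507 and 1115, quantile normalization 2456 and 2786, and rescaling 4579 and 1472, and with each library left out they were 1733 to 2303 and 1330 to 1727. Between SETD2 C and SETD2 FL they were 3408 and 2675. No scaling gave 5189 and 1508, quantile normalization 2699 and 3066, and leaving out SETD2 C replicate 2 1867 and 1569. Between KO and WT they were 410 and 359 without scaling, 20 and 66 with no filter, 119 and 294 without a trend, 127 and 307 with all gene types, and 31 to 473 and 125 to 767 with each library left out. Between SETD2 FL and KO, 28 and 5 became 47 and 11 without scaling, 57 and 4 after rescaling, 10 and 0 without a trend, 6 and 1 with all gene types, 3 and 0 with no filter, and 2 to 9 and 0 with each library left out. A fit that leaves out a library assumes that the lone library of that group varies like the others. There were 2 libraries a group, and the depth is unknown, which limits the precision to the intervals given above.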

Other observations

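Some of the genes around the readers differed between SETD2 C and SETD2 FL, where 17 of the 71 related genes rose and 11 fell (39.4%, against 38.2% of all genes tested, limma with an adjusted p of at most 0.05). The largest rises were those of EZH1, from 29.3 ± 1.07 to 45.6 ± 1.55 scaled TPM (SD, n = 2 each), a log2 difference of 0.63 (adjusted p = 0.000474 by limma), and ING4, an ING-family partner listed for BRPF1, at 0.62 (adjusted p = 0.000449 by limma). PWWP3A rose by 0.53 and TET2 by 0.50. IWS1, a partner of PSIP1 in elongation, fell by 0.49 (adjusted p = 0.00146 by limma), UHRF1 by 0.41 and MEN1 by 0.39. The 4 genes listed as other chromodomain, Tudor and MRG-domain genes rose, PHF20L1 and PHF20 by 0.32 and 0.21, MSL3 by 0.33 and MORF4L2 by 0.26. Of the 28 genes, 19 were called in the same direction under all 3 other scalings, and none changed direction. PHF20 was named after its values were seen.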
